A study of Mus musculus with 24 samples.

Results

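Lung tumours of mice with an EGFR L858R transgene were compared with normal lungs of the same strain label. The comparison took 9 of the 24 arrays of the series, chosen by array title and strain label with no measured value used. The tumour side was 4 arrays titled L858R 1 to 4, called L858R tumours here, and the normal side was 5 arrays titled Normal 1 to 5, called mixed-strain normals, and all 9 carry the strain label FVB mixed. The L858R tumours were nodules large enough to be seen and cut out by eye from the lungs of bitransgenic mice, which had been on a doxycycline diet for 3 to 6 months. The mixed-strain normals were lung tissue of littermates that had no transgene or 1 of them, and these littermates were also on doxycycline. The labels write the driver transgene only as C, so the cell type that turns on L858R is not given in the sources used here, and they do not say which normals were free of transgenes. Neither age, sex, animal, batch nor date is labelled, and separate mice are not stated, so p-values cover only the spread among arrays, which may be technical. The fit also held 5 L858R+T790M tumours and 5 T790M tumours from doxycycline-fed bitransgenic mice and 5 normal lungs of their littermates, all with the strain label FVB, and these groups return in the last comparison.

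EGFR is a receptor tyrosine kinase of epithelial cells that binds ligands of the epidermal growth factor family, pairs with itself or with its relatives ERBB2 and ERBB3, and signals through RAS and ERK. L858R is a substitution in the kinase domain, known from human lung adenocarcinoma, that keeps the receptor active with little need of ligand. In the alveolus, type 2 cells make surfactant and renew the flat type 1 cells, which exchange gas with a dense bed of capillaries.

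RNA was hybridised to 1 array per sample. Levels below are the deposited log2 values, on which 1 unit is a factor of 2, and a level of 1 gene is not set against that of another. A difference is the mean of the 4 L858R tumours minus the mean of the 5 mixed-strain normals on the log2 scale, ± SE from limma, and a gene is called higher or lower at a Benjamini-Hochberg adjusted p under 0.05 over 18193 genes. A gene is written to have risen or fallen only where it was called.

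The arrays of the normals resembled each other more than those of the tumours. Pairs of normals correlated at 0.988 to 0.995, pairs of tumours at 0.975 to 0.987 and tumours with normals at 0.924 to 0.957. The SD over arrays was larger in the tumours for 14030 genes (77.1%), with a median SD of 0.18 in tumours and 0.11 in normals. Some arrays stood apart in single genes and in list means. The mean over 24 gut, liver and oncofetal genes was 8.19 in mixed-strain normal 3, against 6.92 to 7.29 in the other normals. That over 19 mucosal genes was 10.19 in mixed-strain normal 4, against 8.31 to 8.92 in the other normals. Mixed-strain normal 3 held albumin RNA (Alb) at 12.54, against 7.08 to 9.29 in the tumours and 6.57 to 6.84 in the other normals, and mixed-strain normal 4 held the goblet cell gene Clca1 at 13.37, against 4.07 to 7.08 in the tumours and 4.08 to 4.30 in the other normals. The X-linked noncoding RNA Xist was high in tumours 3 and 4 (8.34, 9.51, 13.61 and 13.51) and in normals 2 and 3 (8.30, 13.45, 13.55, 8.28 and 8.22). The Y-linked gene Eif2s3y was high in the others (10.62, 10.12, 4.02 and 4.21 in the tumours, against 9.68, 4.17, 3.98, 9.59 and 9.58 in the normals). Xist and Eif2s3y were chosen after their values were seen. RNA breakdown was read from control probe sets at both ends of Gapdh. Their 3-prime minus 5-prime difference was -0.24 to -0.07 in tumours and -0.31 to -0.22 in normals, 0.11 higher on average (exact permutation p = 0.0476, two-sided). This p was 0.0571 to 0.107 in 8 of the 9 cases where 1 array was left out. For Actb it was 0.07 higher (exact permutation p = 0.190). The part of these differences in the results below was not tested.

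Of 18193 genes, 7523 were called. In L858R tumours 4235 genes (23.3%) were called higher and 3288 (18.1%) lower, and with each array centred on its median the split was 5786 higher and 2809 lower. By at least 2-fold, 756 rose and 1210 fell, and by at least 8-fold, 24 rose and 87 fell. For 3595 genes (19.8%) every tumour lay above every normal, and for 2909 (16.0%) every tumour lay below. The median difference over all genes was 0.05. Every list count below is to be read beside these shares over all genes, and a count near them does not set a list apart. The lists were chosen with earlier results of these data known. A count far from the shares is therefore a description, and no list was tested. These are bulk samples, so fewer cells of a type and less RNA per cell cannot be told apart.

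The receptor itself gave a divided answer. Egfr was read by 7 probe sets. The brightest, which stands for the gene, had levels of 9.08, 9.18, 9.22 and 9.21 in the L858R tumours, against 9.12, 9.0, 9.24, 9.03 and 9.19 in the mixed-strain normals. The groups overlapped, and the difference was 0.06 ± 0.06 (adjusted p = 0.508). The next brightest had 8.13, 6.76, 6.85 and 6.88 in the tumours, against 9.12, 8.91, 9.12, 9.02 and 8.95 in the normals, a difference of -1.87 (adjusted p = 0.000251 over all probe sets). A dimmer one had 6.56, 5.35, 5.45 and 5.32 in the tumours, against 7.93, 7.73, 8.06, 7.74 and 7.98 in the normals, a difference of -2.22 (adjusted p = 4.92e-05). In both, all 4 tumours lay below all 5 normals, and tumour 1 lay nearest to them. Of the other 4 probe sets of Egfr, 1 fell (-0.34), 1 rose (0.22) and the rest were not called. All are annotated to mouse Egfr, the labels do not give the species of the transgene, and whether any probe set reads it was not tested.

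Measured ligands of the EGFR family rose more often than they fell, with 5 of 9 called higher, 1 lower and a median difference of 0.59, beside 23.3% higher, 18.1% lower and 0.05 over all genes. Areg, for the ligand amphiregulin, was in the list but not among the genes measured here. Epiregulin, Ereg, which binds EGFR and ERBB4, had 10.59, 10.69, 10.80 and 10.52 in the tumours, against 4.95, 4.77, 5.05, 4.89 and 4.35 in the normals. The tumours lay within 0.28 of each other, far above every normal (5.85 ± 0.55). Betacellulin, Btc, another EGFR ligand, had 8.24, 8.57, 8.35 and 8.95 in the tumours, against 7.5, 7.35, 7.45, 7.39 and 7.74 in the normals, and again no tumour reached down to a normal (1.04 ± 0.24). Epigen, Epgn, rose by 0.66 ± 0.15, and Tgfa, for transforming growth factor alpha, by 0.53 ± 0.16, a call that ended without tumour 4. Nrg4, a ligand of ERBB4, rose by 0.60 ± 0.09, while Nrg1, a ligand of ERBB3 and ERBB4, was the ligand called lower (-0.65 ± 0.11). Egf, with 6.23, 7.10, 7.34 and 7.32 in the tumours, against 6.29 to 6.54 in the normals, was near the normals in tumour 1 and above them in the others, and was not called (adjusted p = 0.0542). Hbegf and Nrg2 differed by -0.11 and -0.03 and were not called, though 1 of the 3 Nrg2 probe sets was called lower.

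Of the other receptors of the family, Erbb3, whose protein pairs with EGFR and ERBB2, had 10.79, 10.11, 10.46 and 10.63 in the tumours, against 9.23, 9.56, 9.19, 9.39 and 9.23 in the normals. Every tumour was above every normal (1.18 ± 0.19), as for Erbb2 (0.58 ± 0.09), whereas Erbb4 was dim in all 9 arrays (3.59 to 3.70 in the tumours, against 3.49 to 3.73 in the normals). Adam17 and Adam10, proteases that shed EGFR ligands from the cell surface, rose by 0.66 ± 0.11 and 0.40 ± 0.09. Inhibitors of the receptor moved both ways. Errfi1, whose product binds and blocks the EGFR kinase, rose by 1.01 ± 0.21, while Lrig3, of a family whose member LRIG1 lowers ERBB receptors, fell (-1.0 ± 0.12) with 4 nearly equal tumour levels (6.60, 6.60, 6.56 and 6.60 in the tumours, against 7.47 to 7.69 in the normals). Lrig1 itself lay lower in all 4 tumours but missed the call (7.74 to 8.05 in the tumours, against 8.41 to 8.67 in the normals; adjusted p = 0.0688). Socs3, a feedback inhibitor of cytokine receptors, lay higher in all 4 and missed it too (0.66, adjusted p = 0.0953).

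Downstream of RAS, the genes that ERK signalling turns on to restrain itself rose in 9 of 14 cases and fell in 2, with a median of 0.46. Dusp4, a nuclear phosphatase of ERK, had 9.59, 9.82, 10.55 and 10.37 in the tumours, against 8.63, 8.63, 8.41, 8.40 and 8.39 in the normals. Tumours 3 and 4 were highest, and the lowest tumour was still above the highest normal (1.59 ± 0.28). Spred1, which blocks RAS activation, had 11.09, 11.41, 11.41 and 11.44 in the tumours, against 9.80 to 10.08 in the normals and rose by 1.35 ± 0.19. Dusp6, the cytoplasmic ERK phosphatase, rose by 0.72 ± 0.14. Spry2, a feedback inhibitor induced by growth factors, rose by 0.67 ± 0.22, with tumour 2 lowest and just below the normals (9.70 to 11.17 in the tumours, against 9.74 to 10.20 in the normals), and this call ended without tumour 1, 3 or 4. That of Spry1 (0.43 ± 0.16) ended without 6 of the 9 arrays in turn. Dusp7 (-0.94 ± 0.13) and Rasa3 (-0.53 ± 0.12), a RAS inhibitor, fell.

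Targets that ERK signalling is known to induce gave 8 of 15 genes higher and 2 lower, with 1 lower without tumour 4. Etv4, an ETS transcription factor of the PEA3 group, had 7.95, 8.80, 9.16 and 8.72 in the tumours, against 7.29, 7.18, 7.46, 6.92 and 7.47 in the normals. Tumour 1 was the lowest of the tumours and still above all normals (1.39 ± 0.24). Phlda1 rose by 1.36 ± 0.20 and Myc, the growth transcription factor, by 1.15 ± 0.14. Il11 (0.82 ± 0.15) and Lif (0.58 ± 0.15), cytokines that signal through gp130, rose as well. Ccnd1, the G1 cyclin D1, rose by 0.49 ± 0.18, but its call ended without tumour 2 or 3 or normal 1, 2 or 4, and Ccnd2 fell (-0.95 ± 0.32; not called without tumour 4). Ier3, an early stress and growth response gene, had 10.50, 10.38, 11.21 and 11.23 in the tumours, against 12.38, 12.32, 12.50, 12.26 and 12.57 in the normals, and all tumours lay below all normals (-1.58 ± 0.25).

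Immediate early transcription factors, which rise within minutes of stimulation and also during tissue handling, did not move as 1 block. Of these, 3 of 20 were called higher and 5 lower, beside 23.3% and 18.1% over all genes, with a median of 0.04. Egr2 had 8.55, 8.97, 8.69 and 8.87 in the tumours, against 7.63, 7.39, 7.32, 7.31 and 7.30 in the normals and rose by 1.38 ± 0.17, and Fosl2 rose by 0.76 ± 0.18. Fos (10.14 to 10.74 in the tumours, against 9.65 to 11.31 in the normals) and Egr1 (8.44 to 10.55 in the tumours, against 9.38 to 10.87 in the normals) overlapped between the groups and were not called. The genes called lower were led by Klf2 (-2.19 ± 0.39), a transcription factor of endothelium exposed to flow, and Klf4 (-1.75 ± 0.37), and included Jun (-1.26 ± 0.25) and Ier3 given above.

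Other receptor tyrosine kinases mostly fell, 14 of 25 against 6 that rose. Ros1, an orphan receptor kinase, had 7.26, 8.67, 9.10 and 8.88 in the tumours, against 5.52, 6.20, 5.96, 5.58 and 6.44 in the normals. Tumour 1 was the lowest tumour but above all normals (2.54 ± 0.36). Met, the receptor of hepatocyte growth factor, had 11.46, 10.84, 11.70 and 11.37 in the tumours, against 10.33 to 10.51 in the normals and rose by 0.92 ± 0.20. Fgfr2, an epithelial FGF receptor, was higher in all 4 tumours without a call (0.52, adjusted p = 0.106), while Fgfr4 (-2.50 ± 0.31), Fgfr3 (-1.44 ± 0.25), Fgfr1 (-1.22 ± 0.27) and the insulin-like growth factor receptor gene Igf1r (-1.46 ± 0.20) fell. Among the deepest falls were receptors of other compartments, Kit of mast and progenitor cells and lung endothelium (-3.41 ± 0.56), the angiopoietin receptor Tek (-3.56 ± 0.58) and the fibroblast receptors Pdgfra (-2.59 ± 0.51) and Ddr2 (-2.55 ± 0.31).

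**Figure D1:**
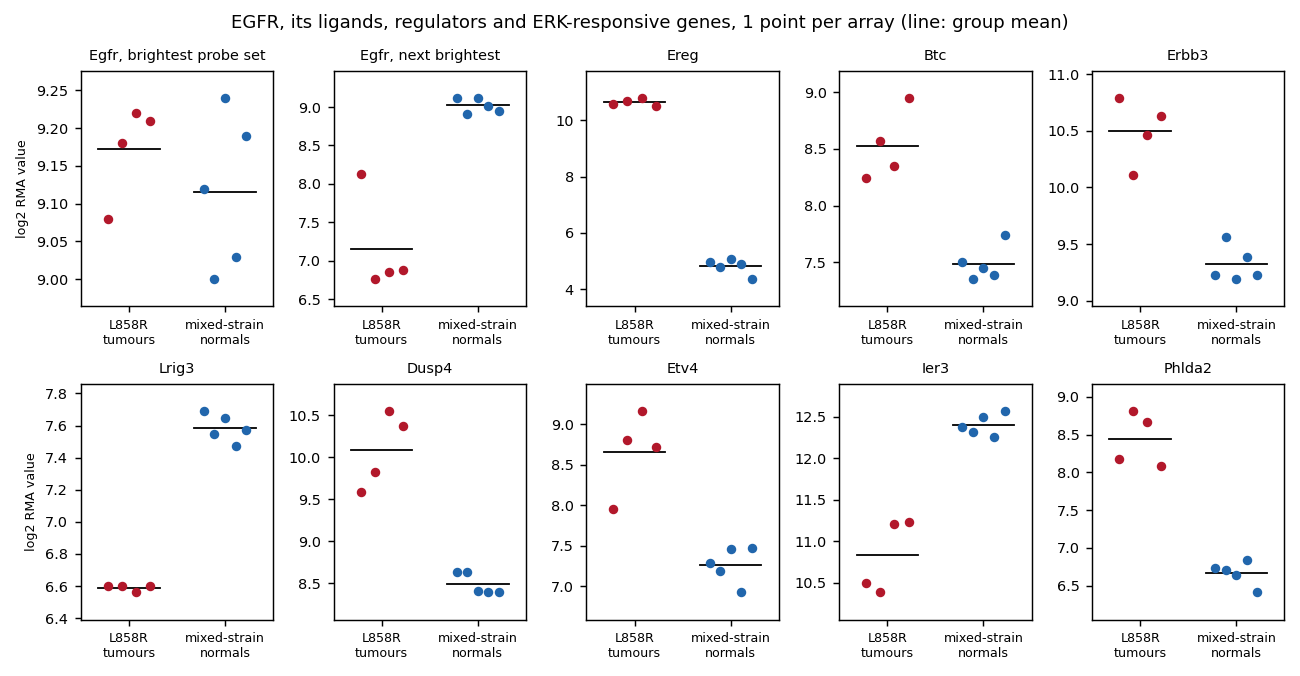
Log2 level of Egfr (2 probe sets), its ligands, relatives and ERK-responsive genes, and of the imprinted gene Phlda2, which is in none of these lists, 1 point per array with L858R tumours (red) left of mixed-strain normals (blue) and a line at each group mean. The brightest Egfr probe set overlaps between the groups, the next brightest, Lrig3 and Ier3 are lower in every tumour, and the other 6 genes are higher in every tumour; each panel has its own axis.

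The genes with the largest rises included several that are known from other tissues. Ivl, for involucrin, a protein of the cornified skin envelope, had 9.23, 11.18, 9.69 and 9.51 in the tumours, against 5.89, 5.98, 5.89, 5.82 and 5.78 in the normals. Tumour 2 was the highest, and all tumours lay far above all normals (4.03 ± 0.49). Piwil4, of the PIWI family that binds small RNAs in the germ line, had 9.07, 9.92, 9.56 and 9.71 in the tumours, against 5.16 to 5.77 in the normals and rose by 4.03 ± 0.30. Dmkn, for dermokine, a secreted protein of the epidermis, had 13.38, 12.01, 13.12 and 12.84 in the tumours, against 8.98 to 9.62 in the normals and rose by 3.59 ± 0.70. Afp, for alpha-fetoprotein of the fetal liver and yolk sac, had 8.25, 9.14, 8.79 and 8.79 in the tumours, against 5.12 to 5.59 in the normals and rose by 3.29 ± 0.50. Sertad4 rose by 3.77 ± 0.43.

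Of 24 gut, liver and oncofetal genes, 2 rose, Afp and the mucin gene Muc1 (1.21 ± 0.15), and 3 fell, beside 23.3% and 18.1% over all genes. The list mean of normal 3 lay above that of every other array. With 1 array left out, 2 to 3 genes rose and 3 fell. The fetal genes Lin28b (3.27 to 3.44 in the tumours, against 3.20 to 3.32 in the normals) and Hmga2 (6.15 to 6.34 in the tumours, against 5.85 to 6.49 in the normals) overlapped between the groups and were not called. So did the gut factor Cdx2 (6.16 to 6.35 in the tumours, against 6.25 to 6.38 in the normals) and the liver and gut factor Hnf4a (7.88 to 8.16 in the tumours, against 7.84 to 8.43 in the normals). Alb was not called (adjusted p = 0.878), and normals 1, 2, 4 and 5 lay below all 4 tumours while normal 3 lay above them.

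Kng1, the precursor of the vasoactive kinins, and Arg2, the mitochondrial arginase, were among the largest rises. Kng1 had 10.42, 11.76, 9.20 and 10.70 in the tumours, against 4.39, 4.50, 7.58, 4.08 and 4.63 in the normals. Tumour 3 was nearest to normal 3, which stood apart from the other normals and was also the array with albumin RNA (5.48 ± 0.67). A dimmer Kng1 probe set had 7.31, 7.79, 6.82 and 7.31 in the tumours, against 6.56, 6.50, 7.63, 6.14 and 6.46 in the normals, where normal 3 was above 3 tumours, and it was not called (0.65, adjusted p = 0.0510). Arg2 had 10.87, 12.09, 11.74 and 11.96 in the tumours, against 6.70, 6.29, 6.85, 6.92 and 7.05 in the normals, and the groups lay far apart (4.90 ± 0.34). Of 13 kallikrein, kinin and angiotensin genes, 2 rose and 3 fell, beside 23.3% and 18.1% over all genes. Kng1 and the bradykinin-cleaving peptidase gene Xpnpep1 (0.38 ± 0.08) were those that rose. The kinin receptor gene Bdkrb1 (-0.54 ± 0.09), the kinin-degrading enzyme gene Ace (-1.94 ± 0.40), which is high in lung capillaries, and the angiotensin receptor gene Agtr1a (-2.60 ± 0.30) were those that fell. The kallikrein gene Klk1 (7.65 to 8.11 in the tumours, against 7.73 to 8.13 in the normals) overlapped and was not called. Around Arg2, 6 of 14 arginine and polyamine genes rose and 0 fell. Slc7a2, an arginine transporter, rose by 1.25 ± 0.31. Smox (1.21 ± 0.22) and Sat1 (1.11 ± 0.13), which break down or acetylate polyamines, and Azin1 (1.15 ± 0.21), which protects ornithine decarboxylase, rose as well. Odc1, ornithine decarboxylase itself, overlapped (10.91 to 11.45 in the tumours, against 10.71 to 11.24 in the normals; adjusted p = 0.225), and the inducible arginase Arg1 (5.88, 7.09, 8.28 and 7.77 in the tumours, against 4.84, 5.55, 7.51, 5.79 and 5.93 in the normals) spread widely in both groups and was not called.

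The imprinted Dlk1-Dio3 region on chromosome 12 rose in all 4 measured genes, with a median of 3.75. Dlk1, a Notch-like membrane protein expressed from the paternal copy, had 11.50, 9.36, 13.91 and 14.08 in the L858R tumours, against 6.51, 6.61, 6.47, 6.30 and 6.73 in the mixed-strain normals. Tumours 3 and 4 were the highest, tumour 2 was 4.72 below tumour 4, and no tumour overlapped a normal (5.69 ± 0.99). A second Dlk1 probe set had 6.31, 6.05, 7.53 and 7.66 in the tumours, against 5.67 to 6.21 in the normals, and was called (0.95). The maternally expressed noncoding RNAs had the same tumours on top. Meg3 had 12.78, 12.54, 13.52 and 13.70, Rian 10.28, 8.60, 11.16 and 11.08 and Mirg 9.24, 8.03, 10.27 and 10.31 in tumours 1 to 4, and their normals lay at 8.78 to 9.62, 6.50 to 6.94 and 6.62 to 7.23.

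Other imprinted genes of growth did not follow. Of 17 measured, 1 rose and 8 fell. The gene that rose was Phlda2, a growth-restraining gene of the placenta, with 8.18, 8.81, 8.67 and 8.09 in the tumours, against 6.41 to 6.84 in the normals (1.77 ± 0.22). Cdkn1c, a cell cycle inhibitor from the same imprinted domain, fell (-1.27 ± 0.26), and Plagl1, a zinc finger factor, had 10.61, 11.01, 11.60 and 10.75 in the tumours, against 11.91 to 12.23 in the normals (-1.11 ± 0.25). Igf2 (7.17 to 8.21 in the tumours, against 7.79 to 8.35 in the normals) overlapped and was not called. Ndn (-2.59 ± 0.43), Mest (-0.94 ± 0.19) and Sgce (-0.92 ± 0.21) fell beside the fibroblast genes described further on.

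Surfactant and lamellar body genes, a list drawn up for alveolar type 2 cells, rose in 10 of 15 cases and fell in 0, with a median of 0.45. The list shares Cd36 with that of alveolar macrophages and Fasn and Scd1 with that of fatty acid synthesis. The part of other cells in it was not tested. The count of falls was 1 without tumour 1, with only the 9 arrays fitted or after a further quantile normalization. The mean level of the list was 13.30 to 13.41 in the tumours, against 12.67 to 12.87 in the normals. Ctsh, for the protease that processes surfactant protein, had 14.09, 14.13, 14.13 and 14.30 in the tumours, against 12.21, 12.27, 12.39, 12.40 and 12.51 in the normals, with all tumours well above all normals (1.81 ± 0.10). Abca3, the lipid pump of the lamellar body, rose by 1.0 ± 0.13, Lpcat1, which makes surfactant phosphatidylcholine, by 0.91 ± 0.16 and Sftpd, for surfactant protein D, by 0.64 ± 0.12. Sftpc had 14.78, 14.70, 14.76 and 14.80 in the tumours, against 14.66, 14.73, 14.68, 14.73 and 14.75 in the normals, a difference of 0.05 ± 0.04 at the bright end of the scale, where array signals flatten. The dimmer of its 2 probe sets was called lower, so Sftpc gave a divided answer. Cd36 (13.03 to 13.52 in the tumours, against 13.45 to 13.60 in the normals) overlapped, and Pgc was dim in both groups (7.04 to 7.29 in the tumours, against 6.92 to 7.26 in the normals).

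Of 19 transcription factors of the lung epithelium, 10 rose and 2 fell. Elf5, an ETS factor of distal lung and secretory epithelium, had 11.22, 11.21, 11.63 and 11.41 in the tumours, against 9.08, 9.12, 9.02, 9.14 and 9.40 in the normals. The 4 tumours stood within 0.42 of each other, well above the normals (2.22 ± 0.31). Ehf, a related epithelial factor, rose by 1.75 ± 0.22, Grhl2, which maintains epithelial junctions, by 1.19 ± 0.17, Id2, a mark of distal tip progenitors in the embryo, by 1.27 ± 0.25 and Foxa2 by 0.56 ± 0.11. Hopx, of type 1 cells (-1.40 ± 0.28), and Foxj1, the master factor of motile cilia (-1.58 ± 0.23), fell. Sox9, a factor of the embryonic distal tip, had 6.05, 7.51, 8.55 and 8.27 in the tumours, against 6.28, 5.94, 6.15, 5.91 and 6.16 in the normals. Tumour 1 lay among the normals and tumours 2, 3 and 4 lay above them, and the gene was not called (1.51 ± 0.64, adjusted p = 0.0641), though 1 of its 3 probe sets was called higher. Sox2, of proximal airways, had 7.45, 5.79, 9.34 and 7.55 in the tumours, against 9.16, 9.68, 9.05, 9.33 and 8.84 in the normals; tumour 3 lay among the normals and the other 3 below them, with no call (adjusted p = 0.197).

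Type 1 cell genes fell in 12 of 16 cases. Igfbp2, which marks mature type 1 cells, had 9.29, 9.43, 9.97 and 9.68 in the tumours, against 12.35, 12.60, 13.19, 12.69 and 13.29 in the normals, and no tumour came near a normal (-3.23 ± 0.52). Pdpn, for podoplanin of the type 1 surface, had 10.34, 10.28, 10.92 and 9.96 in the tumours, against 12.17 to 12.39 in the normals and fell (-1.95 ± 0.39). Cav1, for caveolin, which endothelium also holds, had 12.79, 10.97, 11.60 and 11.28 in the tumours, against 13.78 to 13.86 in the normals with tumour 1 highest (-2.17 ± 0.46). Ager, by contrast, had 14.36, 13.89, 14.00 and 13.83 in the tumours, against 14.42, 14.41, 14.29, 14.41 and 14.39 in the normals; tumour 1 lay within the normal range, and the small fall (-0.36 ± 0.12) was lost without tumour 2 or 4. Aqp5, the water channel of type 1 cells, was the 1 member that rose (12.79, 12.86, 12.58 and 12.69 in the tumours, against 11.30 to 11.91 in the normals; 1.02 ± 0.36), a call lost without tumour 2 or normal 3; with only the 9 arrays fitted, 2 rose.

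Of 19 genes of ciliated airway cells, 17 fell and 0 rose. Tppp3, a microtubule protein of cilia, had 10.45, 9.20, 9.52 and 8.19 in the tumours, against 12.10 to 12.58 in the normals (-3.05 ± 0.52). Rsph4a, of the ciliary radial spoke, had 6.04, 5.80, 5.64 and 4.85 in the tumours, against 7.83 to 8.76 in the normals (-2.65 ± 0.45). Tumour 4 was the lowest in both. Club cell genes fell in 7 of 14 cases. Cyp2f2, the airway cytochrome P450, had 12.46, 11.60, 11.06 and 10.23 in the tumours, against 14.31, 14.34, 14.34, 14.24 and 14.25 in the normals, and Scgb3a2, a secretoglobin, 12.81, 12.16, 12.43 and 9.31 in the tumours, against 14.32, 14.37, 14.36, 14.30 and 14.27 in the normals. In both, tumour 4 was the lowest and every tumour was below every normal (-2.96 ± 0.71 and -2.65 ± 0.72). Scgb1a1, the club cell secretory protein, had 14.30, 13.26, 13.69 and 12.53 in the tumours, against 14.60 to 14.69 in the normals and was called lower (-1.19 ± 0.47), but this call was lost without 8 of the 9 arrays in turn, and the array whose omission kept it was tumour 1. Muc5b, a gel-forming airway mucin, had 8.83, 8.75, 9.34 and 9.41 in the tumours, against 8.71, 9.87, 9.63, 11.03 and 9.47 in the normals, with normal 4 highest, and was not called (adjusted p = 0.19). Basal cell genes gave 0 calls in 7, with Trp63, the basal cell factor, at 5.32 to 5.68 in the tumours, against 5.56 to 5.71 in the normals; 1 was higher with each array centred and 1 lower with only the 9 arrays fitted. Among 13 neuroendocrine genes 2 rose and 4 fell, beside 23.3% and 18.1% over all genes. The count of rises was 1 without tumour 2 or 4 or normal 1, 2 or 4 or with only the 9 arrays fitted. Ccn3 rose (10.27, 12.63, 10.18 and 11.65 in the tumours, against 8.31 to 9.47 in the normals; 2.15 ± 0.46). Ddc, which makes dopamine and serotonin, fell (-1.72 ± 0.55), while Chga was dim in all arrays (5.18 to 5.29 in the tumours, against 5.10 to 5.15 in the normals).

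Of 12 keratins, 4 rose and 1 fell. Krt8, of simple epithelia, had 13.12, 13.74, 13.24 and 13.76 in the tumours, against 11.81, 12.13, 11.71, 12.03 and 11.96 in the normals, and all tumours lay above all normals (1.54 ± 0.21). Krt23 rose by 2.08 ± 0.24 and Krt80 fell (-1.66 ± 0.33), while Krt5 (7.79 to 8.15 in the tumours, against 7.86 to 8.12 in the normals) and Krt7 (11.65 to 12.42 in the tumours, against 12.09 to 12.31 in the normals) overlapped. Of 21 junction genes, 13 rose and 0 fell (1 without tumour 2 or with only the 9 arrays fitted). Cldn2, a pore-forming claudin known from kidney and gut, had 8.83, 10.57, 11.57 and 11.68 in the tumours, against 6.17, 6.84, 7.0, 6.91 and 6.51 in the normals; tumour 1 was lowest and still above all normals (3.98 ± 0.70). Epcam, for the epithelial adhesion molecule, had 12.39, 12.08, 12.73 and 12.43 in the tumours, against 10.52 to 11.17 in the normals (1.60 ± 0.19), and the claudin genes Cldn3 (1.46 ± 0.12) and Cldn7 (1.22 ± 0.13) and the epithelial splicing regulators Esrp1 (1.5 ± 0.12) and Esrp2 (1.28 ± 0.15) rose. Cdh1, for E-cadherin, rose by 0.43 ± 0.08. Dsg2, of desmosomes, had 6.50, 8.93, 6.02 and 7.44 in the tumours, against 8.76, 9.22, 8.98, 8.93 and 8.66 in the normals; tumour 2 was among the normals and the others were below, with no call (adjusted p = 0.0804).

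Regulators of epithelial-mesenchymal transition fell in 8 of 11 cases and rose in 0. Zeb1, a repressor of E-cadherin, had 9.60, 9.09, 9.26 and 9.01 in the tumours, against 11.68, 11.76, 11.55, 11.73 and 11.61 in the normals, and Snai2, of the same function, 7.78, 6.81, 7.30 and 6.34 in the tumours, against 9.26, 9.54, 10.06, 9.22 and 9.26 in the normals. All tumours were below all normals in both (-2.43 ± 0.33 and -2.41 ± 0.39). Stromal cells of the lung also express both, and fibroblast genes fell in the same arrays; the part of the stroma in these values was not tested.

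**Figure D2:**
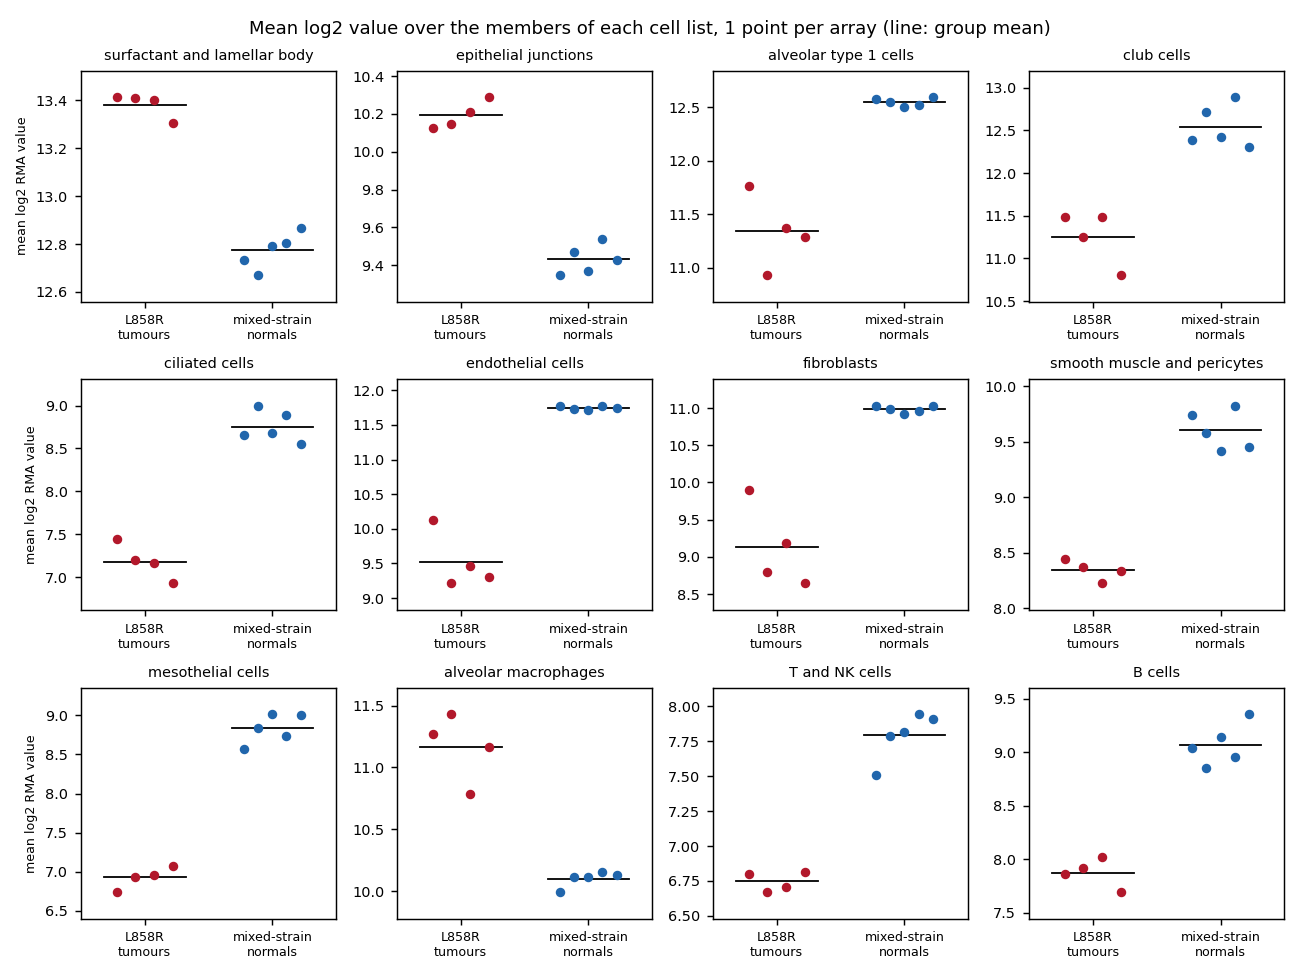
Mean log2 level over the members of 12 cell lists, 1 point per array, L858R tumours (red) left of mixed-strain normals (blue), with a line at each group mean. The groups do not overlap in any panel: surfactant, junction and alveolar macrophage lists are higher in the tumours, and the other 9 are lower; each panel has its own axis.

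Mitotic genes rose in 21 of 24 cases and fell in 0, with a median of 1.09, but the tumours differed widely. The mean of the list was 8.86, 8.12, 8.21 and 7.36 in tumours 1 to 4, against 6.80 to 7.30 in the normals, so tumour 1 was the highest and tumour 4 barely left the normal range. In 12 of the 24 genes all tumours were above all normals, beside 19.8% of all genes. Birc5, for survivin, which works at the centromere and in cytokinesis, had 9.26, 8.42, 8.52 and 7.15 in the tumours, against 6.05, 6.53, 6.43, 7.2 and 6.61 in the normals. Tumour 4 lay below the highest normal and the other tumours above it (1.77 ± 0.36). Cdk1, the kinase that drives entry into mitosis, had 10.02, 9.16, 9.34 and 7.95 in the tumours, against 6.94, 7.45, 7.45, 7.80 and 7.47 in the normals; no tumour overlapped (1.70 ± 0.35). Ube2c, which tags mitotic cyclins for destruction, had 9.99, 8.17, 8.49 and 7.34 in the tumours, against 6.51, 7.19, 6.86, 7.53 and 6.94 in the normals, and the call (1.49 ± 0.45) ended without tumour 1, as did that of Top2a, DNA topoisomerase II (1.17 ± 0.37). Mki67, a common marker of cycling cells, had 9.51, 9.02, 9.34 and 7.84 in the tumours, against 6.78, 7.47, 7.34, 8.12 and 7.52 in the normals; tumour 4 was again below the highest normal (1.48 ± 0.39).

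Promoters are shown for the 3 of the 4 mitosis genes with the highest differences that hold words of the cell cycle elements known as CCAAT box and CHR. The sequences are RefSeq's, build GRCm38.p6, 300 bases around the start, written 5′ to 3′ on the gene's strand. Capitals mark on either strand the letters CCAAT and the CHR letters, which are TTTGAA and, as a variant, TTCGAA.
Cdk1, chr10:69352863-69353162, minus strand: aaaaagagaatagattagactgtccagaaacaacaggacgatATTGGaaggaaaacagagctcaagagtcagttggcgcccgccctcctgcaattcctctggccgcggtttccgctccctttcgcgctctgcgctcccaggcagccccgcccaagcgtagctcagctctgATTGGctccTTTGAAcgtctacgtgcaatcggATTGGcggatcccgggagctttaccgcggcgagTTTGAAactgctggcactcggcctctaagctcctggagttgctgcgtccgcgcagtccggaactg
Ube2c, chr2:164769679-164769978, plus strand: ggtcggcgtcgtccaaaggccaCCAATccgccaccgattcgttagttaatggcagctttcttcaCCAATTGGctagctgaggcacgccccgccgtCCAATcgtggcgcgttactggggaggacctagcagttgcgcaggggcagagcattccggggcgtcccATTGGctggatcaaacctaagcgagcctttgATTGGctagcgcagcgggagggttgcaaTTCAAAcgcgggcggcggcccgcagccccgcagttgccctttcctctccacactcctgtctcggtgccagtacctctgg
Mki67, chr7:135716330-135716629, minus strand: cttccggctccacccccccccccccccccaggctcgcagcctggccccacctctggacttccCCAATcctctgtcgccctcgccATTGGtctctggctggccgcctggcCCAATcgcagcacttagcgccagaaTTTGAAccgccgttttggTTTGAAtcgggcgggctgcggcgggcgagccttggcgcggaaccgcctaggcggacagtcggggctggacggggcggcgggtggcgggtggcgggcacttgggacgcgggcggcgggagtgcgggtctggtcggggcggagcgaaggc
Birc5, at chr11:117848987-117849286 on the plus strand, held none of these words in its 300 bases. Of the 24 mitosis genes, 20 were matched by symbol, with 21 promoters. CCAAT was in 18 of the 21 (85.7%), against 37.4% of all 32851 promoters of that length, TTTGAA or TTCGAA in 18 (85.7%), against 19.2%, and CCAAT together with 1 of them in 17 (81.0%), against 7.52%. The words can share letters at their ends, as where CCAAT lies on both strands in Ube2c. A match describes letters in this window and is not a measured site.

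DNA replication genes rose in 14 of 21 cases, with a different order of tumours. Their mean was 8.60, 9.21, 9.0 and 8.10 in tumours 1 to 4, against 7.92 to 8.18 in the normals; tumours 2 and 3 were above tumour 1, and tumour 4 lay within the normal range. Rrm2, for the small subunit of ribonucleotide reductase, had 9.07, 9.83, 9.65 and 7.64 in the tumours, against 7.38, 7.87, 7.71, 8.23 and 7.73 in the normals (1.26 ± 0.36). Cdt1, which loads the replicative helicase, had 9.31, 10.12, 9.96 and 9.19 in the tumours, against 8.43 to 8.61 in the normals, with no overlap (1.13 ± 0.21). Mcm5, of that helicase, had 9.17, 10.04, 10.06 and 7.84 in the tumours, against 8.09 to 8.64 in the normals, with tumour 4 below the normals, and its call (0.94 ± 0.37) was lost without 7 of the 9 arrays in turn. Cdkn1a, the p53-responsive inhibitor p21, had 11.99, 11.49, 11.26 and 12.03 in the tumours, against 10.01, 10.48, 10.19, 10.18 and 9.89 in the normals, with no overlap (1.54 ± 0.17). Of 18 inhibitors and p53 targets, 7 rose and 3 fell. Zmat3 (1.08 ± 0.16) and Perp (0.91 ± 0.27), both p53 targets, were among those that rose, and Cdkn2c (-0.96 ± 0.30; not called without tumour 2 or with all 10 normals as 1 group) and Sesn1 (-1.38 ± 0.16) among those that fell, while Mdm2 overlapped (10.41 to 10.87 in the tumours, against 10.51 to 10.75 in the normals). Cdkn2a was dim, with 5.42, 5.05, 5.70 and 5.82 in the tumours, against 4.68 to 5.35 in the normals, and rose by 0.51 ± 0.15, a call that ended with all 10 normals as 1 group.

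Of 24 endothelial genes, 22 fell and 0 rose, with a median of -2.48, and the list mean was 10.12, 9.21, 9.47 and 9.30 in tumours 1 to 4, against 11.72 to 11.78 in the normals. Ramp2, a partner of the adrenomedullin receptor, had 11.28, 9.76, 10.10 and 9.96 in the tumours, against 13.39, 13.36, 13.42, 13.27 and 13.17 in the normals; tumour 1 was the highest tumour and the groups lay apart (-3.05 ± 0.53). Car4, a carbonic anhydrase of lung capillaries that macrophages also express, overlapped at 11.17 to 12.32 in the tumours, against 11.72 to 12.04 in the normals, and it and Esam, a junction protein, were the members without a call. Lymphatic genes fell in 5 of 6 cases, Lyve1 with 11.59, 10.20, 9.08 and 9.76 in the tumours, against 12.41 to 12.62 in the normals (-2.35 ± 0.61).

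Fibroblast genes fell in 18 of 22 cases and the list mean was 9.90, 8.80, 9.19 and 8.64 in tumours 1 to 4, against 10.93 to 11.03 in the normals. Foxf1, a transcription factor of lung mesenchyme and endothelium, had 10.11, 8.66, 8.87 and 8.69 in the tumours, against 12.23, 12.17, 12.19, 12.19 and 12.19 in the normals, and Inmt, an amine methyltransferase abundant in lung fibroblasts, 12.25, 10.62, 9.54 and 9.07 in the tumours, against 14.17, 14.10, 14.24, 14.29 and 14.36 in the normals. In both, tumour 1 was nearest to the normals but apart from them (-3.11 ± 0.49 and -3.86 ± 0.76). Ogn, a small matrix proteoglycan, had 9.56, 7.0, 8.07 and 5.47 in the tumours, against 12.70 to 13.03 in the normals, so tumours 1 and 4 were 4.09 apart while the normals lay within 0.33. Pcolce2, which helps trim procollagen (9.99, 7.12, 7.93 and 6.23 in the tumours, against 12.83 to 13.41 in the normals), and Dpt, for dermatopontin of the matrix (8.67, 7.29, 8.01 and 6.76 in the tumours, against 10.99 to 12.86 in the normals), were likewise highest in tumour 1 and lowest in tumour 4. Hmcn1 (-4.25 ± 0.45), Abi3bp (-4.20 ± 0.55) and Mamdc2 (-4.27 ± 0.75) were among the 15 deepest falls with Scube2 (-4.97 ± 0.65), which helps release hedgehog ligands, Igfbp6 (-4.11 ± 0.57), Pon1 (-4.17 ± 0.63), a paraoxonase, and Tcf21 (-4.28 ± 0.62), a transcription factor of lung mesenchyme. Eln, for elastin, was 1 of the 2 fibroblast genes that rose, with 12.30, 10.62, 11.54 and 11.12 in the tumours, against 9.67, 9.68, 10.28, 9.54 and 9.93 in the normals; tumour 1 was highest and all were above the normals (1.57 ± 0.35).

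Smooth muscle and pericyte genes fell in 15 of 16 cases, and the other rose. Rgs5, a marker of pericytes, had 10.01, 11.40, 10.87 and 11.74 in the tumours, against 8.21, 7.81, 7.28, 8.23 and 8.16 in the normals, with every tumour above every normal (3.07 ± 0.40), whereas the pericyte genes Pdgfrb (-1.23 ± 0.23), Cspg4 (-0.69 ± 0.13), Higd1b (-1.34 ± 0.25) and Notch3 (-1.44 ± 0.21) fell. Mesothelial genes fell in 8 of 9 cases. Gpm6a, a membrane glycoprotein of mesothelium and neurons, had 6.67, 5.23, 6.12 and 5.85 in the tumours, against 11.26, 11.40, 11.36, 10.98 and 11.39 in the normals (-5.31 ± 0.77), and Rspo1, a WNT agonist, 5.83, 6.06, 6.10 and 5.81 in the tumours, against 8.70 to 9.12 in the normals (-2.94 ± 0.31). Cardiac genes, which a lung sample holds through the muscle of its pulmonary veins or through attached tissue, fell in 10 of 12 cases. Myh6 had 8.61, 8.35, 8.48 and 5.05 in the tumours, against 12.40, 12.36, 10.62, 12.10 and 10.86 in the normals, with tumour 4 the lowest and normals 3 and 5 below the other normals. Myh7, the slow myosin heavy chain, rose (11.19, 9.13, 12.13 and 11.35 in the tumours, against 8.82, 9.57, 9.54, 9.24 and 9.77 in the normals; 1.56 ± 0.43), with tumour 2 inside the normal range.

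Of 22 collagen chains, 12 fell and 3 rose, with 1 rising without tumour 3 or 4. Col13a1, of a fibroblast subset, had 6.98, 6.49, 6.25 and 6.23 in the tumours, against 9.36 to 10.12 in the normals (-3.20 ± 0.35), and Col1a2 fell (-1.24 ± 0.35; not called with the median over its probe sets), while Col1a1 had 10.86, 9.70, 10.74 and 9.86 in the tumours, against 10.29, 9.85, 11.21, 10.77 and 11.46 in the normals, overlapped and was not called. Col18a1, a basement membrane collagen and the source of endostatin, had 9.94, 10.45, 11.84 and 11.78 in the tumours, against 9.61, 9.25, 9.41, 9.56 and 9.50 in the normals. Tumours 3 and 4 were highest, and the call (1.54 ± 0.49) was lost without either of them, as was that of Col8a1 (0.63 ± 0.25), which was also lost without normal 1, 2, 3 or 4. Col4a1 (12.22 to 12.82 in the tumours, against 12.34 to 12.60 in the normals) and Col4a2 (11.93 to 12.40 in the tumours, against 12.06 to 12.33 in the normals), of all basement membranes, were not called, and Col4a3 (-1.27 ± 0.27), of the alveolar one, fell. Col12a1 was called lower (-0.92), but another of its probe sets was called higher. Laminin genes of epithelial basement membrane went both ways. Lamb3 had 10.85, 12.08, 12.59 and 12.83 in the tumours, against 9.86, 9.91, 9.76, 10.06 and 10.15 in the normals and rose in every tumour (2.14 ± 0.27). Lama5 rose by 0.77 ± 0.16, and Lama3, whose chain pairs with that of Lamb3, fell (-0.72 ± 0.26), a call lost without tumour 2 or 4 or normal 1 or 4. Itga8, an integrin of fibroblasts and smooth muscle, had 9.30, 9.25, 8.80 and 8.35 in the tumours, against 12.35 to 12.79 in the normals (-3.60 ± 0.50).

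Proteases and their inhibitors gave 4 of 24 higher and 7 lower, beside 23.3% and 18.1% over all genes, with 4 lower without tumour 3. With each array centred on its median, 8 were higher and 6 lower. Mmp12, the macrophage elastase, had 9.45, 8.72, 10.55 and 10.04 in the tumours, against 5.45, 5.36, 6.49, 7.47 and 6.50 in the normals, with all tumours above all normals though the normals spread over 2.11 (3.44 ± 0.50). The cathepsin genes Ctsk (2.30 ± 0.41) and Ctss (1.01 ± 0.25), both of macrophages, rose. Mmp2, a fibroblast gelatinase, fell (-2.54 ± 0.45), and the inhibitor genes Timp3 (-1.40 ± 0.30) and Timp2 (-0.77 ± 0.12) fell. Adamts15 had 8.08, 7.35, 7.59 and 7.54 in the tumours, against 9.28, 8.93, 12.35, 8.60 and 12.29 in the normals; normals 3 and 5 stood above the other 3 normals (-2.65 ± 0.68).

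BMP and TGF-beta genes fell in 14 of 27 cases and rose in 3. Bmp6 had 7.72, 7.36, 6.85 and 7.28 in the tumours, against 11.41, 11.54, 11.65, 11.49 and 11.75 in the normals, and the groups lay far apart (-4.27 ± 0.53). BMP genes of endothelium fell too, with Acvrl1, for the receptor ALK1 (-3.41 ± 0.48), its target Tmem100 (-4.12 ± 0.83) and Smad6, an inhibitory SMAD (-2.99 ± 0.40). Bmpr2, the broadly expressed type II receptor, had 12.01, 11.88, 11.98 and 11.93 in the tumours, against 13.56 to 13.72 in the normals, with 4 nearly equal tumour levels (-1.66 ± 0.18). The genes that rose were Bmp2 (1.32 ± 0.34), Tgfbr1 (1.08 ± 0.12) and Id2 named above, and Bmp4 overlapped between the groups. Tgfb1 was not called (10.11 to 10.47 in the tumours, against 9.78 to 10.11 in the normals), though 1 of its 2 probe sets was called lower, and Tgfb2 fell (-1.18 ± 0.21).

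WNT genes fell in 11 of 28 cases and rose in 5. Wif1, a secreted WNT inhibitor of the distal airway and mesenchyme, had 6.29, 3.67, 6.92 and 5.04 in the tumours, against 9.68, 9.49, 8.83, 8.53 and 9.63 in the normals; the tumours spread over 3.25 and all were below the normals (-3.75 ± 0.75). Wnt2, the mesenchymal ligand of lung development, had 6.38, 6.29, 6.00 and 6.29 in the tumours, against 8.95 to 10.00 in the normals (-3.19 ± 0.27). The canonical targets Axin2 (-0.98 ± 0.15) and Lef1 (-0.78 ± 0.10) fell, while Rnf43 (0.73 ± 0.16), an epithelial feedback inhibitor of WNT receptors, Fzd5 (0.84 ± 0.16) and Wnt7b (0.61 ± 0.13), an epithelial ligand, rose. Dkk2, a modulator of LRP receptors, had 5.70, 7.06, 7.45 and 7.2 in the tumours, against 4.80 to 5.80 in the normals, with tumour 1 inside the normal range (1.73 ± 0.40). NOTCH genes fell in 13 of 18 cases and Hes6 rose (0.60 ± 0.11), with 2 higher without normal 5, with each array centred or after a further quantile normalization. Notch4 (-2.27 ± 0.35) and Dll4 (-1.5 ± 0.15), of endothelium, were among the falls. The NOTCH target Hey1 fell as well (-2.14 ± 0.30; 8.27 to 8.53 in the tumours, against 10.28 to 10.76 in the normals). The target Hes1 (10.14 to 10.80 in the tumours, against 10.54 to 10.89 in the normals) and the ligand Jag1 (9.55 to 10.60 in the tumours, against 10.44 to 10.83 in the normals) overlapped and were not called. Endothelial and fibroblast list means fell in the same arrays, and their part in these pathway counts was not tested.

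**Figure D3:**
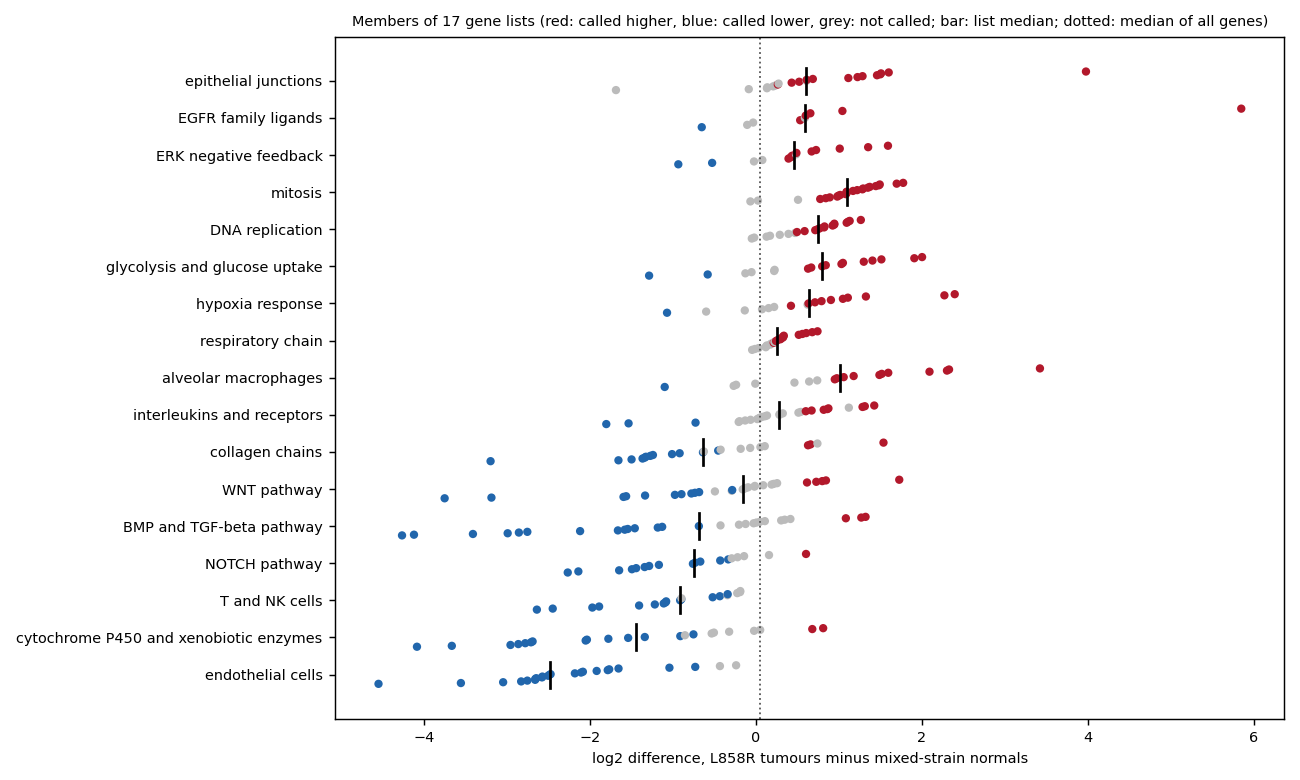
Log2 difference (L858R tumours minus mixed-strain normals) of every measured member of 17 gene lists, 1 point per gene, red where called higher, blue where called lower and grey where not called, with a bar at each list median and a dotted line at the median of all genes (0.05). List medians run from -2.48 for endothelial cells to 1.09 for mitosis, and the BMP, WNT, NOTCH and collagen lists hold members on both sides of the dotted line.

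Alveolar macrophage genes rose in 11 of 18 cases and fell in 1, Cidec (-1.10 ± 0.23), a lipid droplet gene; 2 fell without tumour 1, with only the 9 arrays fitted or after a further quantile normalization. Marco, a scavenger receptor, had 10.04, 12.07, 9.59 and 10.02 in the tumours, against 6.32, 7.42, 7.56, 7.04 and 6.70 in the normals; tumour 2 was highest and every tumour was above every normal (3.42 ± 0.55). Siglecf, a lectin of alveolar macrophages and eosinophils, had 10.55, 10.67, 10.08 and 10.39 in the tumours, against 8.20, 7.97, 7.95, 8.19 and 8.17 in the normals, with 4 close tumour levels (2.33 ± 0.40). Atp6v0d2, of the lysosomal proton pump, had 12.01, 12.44, 11.59 and 12.02 in the tumours, against 9.83 to 10.04 in the normals (2.09 ± 0.27), and Pparg, the factor that surfactant-clearing macrophages need, 8.85, 10.00, 8.99 and 9.63 in the tumours, against 7.58 to 7.98 in the normals (1.52 ± 0.20). Fabp1, Fabp4, Fabp5, Abcg1, Car4 and Cd36 were not called, though 1 of the 2 Abcg1 probe sets was called higher. Fabp4 had 9.70, 9.48, 8.70 and 10.60 in the tumours, against 9.07, 9.67, 7.91, 9.29 and 8.47 in the normals, with tumours 2 and 3 inside the normal range and 3 of its 4 probe sets called higher. Markers of lipid-laden or activated macrophages gave 8 of 15 higher and 1 lower, with a median of 0.53. Gpnmb had 12.08, 12.82, 10.91 and 11.78 in the tumours, against 8.63 to 9.31 in the normals (2.92 ± 0.45). Trem2 had 8.12, 8.64, 8.26 and 8.56 in the tumours, against 6.86 to 7.43 in the normals (1.25 ± 0.18). The complement genes C1qa (9.67 to 10.26 in the tumours, against 9.78 to 10.71 in the normals), C1qb (9.02 to 9.80 in the tumours, against 8.83 to 10.06 in the normals) and C1qc (8.87 to 9.52 in the tumours, against 9.0 to 9.98 in the normals), which tissue macrophages make, overlapped and were not called. Apoe fell (12.01, 11.19, 12.14 and 11.88 in the tumours, against 12.44, 12.35, 12.62, 12.49 and 12.44 in the normals; -0.66 ± 0.21), a call lost without tumour 2, when 0 genes of that list fell, and with all 10 normals as 1 group.

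Lists of other myeloid cells gave other counts. Of 15 monocyte and dendritic cell genes, 7 fell, among them Ccr2 (-1.01 ± 0.31) and Cd209a (-1.76 ± 0.22), and 1 rose, the Fc receptor gene Fcgr4, with 9.93, 10.13, 8.20 and 9.43 in the tumours, against 7.24, 7.97, 7.23, 7.98 and 7.4 in the normals (1.86 ± 0.45). Without tumour 1, with each array centred or after a further quantile normalization, 2 rose. Neutrophil genes gave 2 of 12 higher and 1 lower, beside 23.3% and 18.1% over all genes. The count of falls was 3 without tumour 1 or with only the 9 arrays fitted, and 0 without tumour 3 or 4 or normal 1, 3 or 5, with each array centred on its median or after a further quantile normalization. Lcn2, an iron-binding protein that stressed epithelium also secretes, had 13.14, 13.63, 13.54 and 13.29 in the tumours, against 10.15, 10.69, 10.39, 11.32 and 10.69 in the normals (2.75 ± 0.23), while S100a8, abundant in neutrophils, had 11.82, 8.46, 7.81 and 7.71 in the tumours, against 11.05, 9.81, 10.85, 10.85 and 11.10 in the normals. Tumour 1 lay above all normals and the other tumours below them, and S100a8 was not called (adjusted p = 0.164). T and NK cell genes fell in 14 of 19 cases. Gzma, of cytotoxic granules, had 7.45, 7.59, 7.62 and 7.09 in the tumours, against 8.62 to 10.70 in the normals (-2.64 ± 0.52). Cd8a (6.82 to 7.23 in the tumours, against 7.11 to 7.37 in the normals) and Foxp3 (5.87 to 6.06 in the tumours, against 5.98 to 6.32 in the normals) overlapped and were not called, but 3 of the 5 Cd8a probe sets were called lower. B cell genes fell in 7 of 11 cases, with Ebf1 (-2.32 ± 0.27) and Cd79a (-1.70 ± 0.38). The immunoglobulin genes spread in both groups: Jchain had 10.25, 10.37, 11.37 and 9.93 in the tumours, against 11.32, 11.27, 13.15, 12.49 and 13.52 in the normals with no call (adjusted p = 0.125). Ighm was called lower (-2.14), but tumour 3 lay among the normals, the call was lost without 7 of the 9 arrays in turn, and another of its probe sets was called higher.

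Of 8 genes of MHC class II antigen presentation, 3 rose and 0 fell (1 without tumour 4 or normal 2 or with only the 9 arrays fitted). H2-Eb1 had 11.09, 12.30, 11.94 and 12.15 in the tumours, against 11.91, 12.47, 12.27, 12.29 and 9.0 in the normals, with normal 5 far below the other normals. Of 20 interferon-stimulated genes, 3 fell (Irf1 -0.86 ± 0.33, Ifit3 -1.66 ± 0.63 and Gbp2 -2.01 ± 0.76) and 0 rose, beside 18.1% lower and 23.3% higher over all genes. The list median was -0.77, and in 7 of the 20 all tumours lay below all normals, beside 16.0% of all genes. The count of falls was 12 with only the 9 arrays fitted, 1 without normal 5 and 0 without tumour 2, 3 or 4 or normal 2, 3 or 4. Ifit1 had 9.03, 7.05, 7.64 and 7.66 in the tumours, against 8.64, 9.26, 9.27, 9.39 and 9.10 in the normals and was not called.

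Chemokine genes fell in 15 of 35 cases and rose in 5. Cxcl3, which draws neutrophils, had 7.39, 6.21, 7.33 and 5.51 in the tumours, against 3.78, 3.45, 3.49, 3.64 and 3.34 in the normals. Tumours 1 and 3 were highest and tumour 4, the lowest, was still above the highest normal (3.07 ± 0.59). Ccl6, a macrophage chemokine, had 13.94, 14.12, 13.68 and 13.61 in the tumours, against 12.06 to 12.25 in the normals (1.69 ± 0.21), and its receptor gene Ccr1 rose by 1.55 ± 0.38. Cxcl12, of stromal cells and endothelium, had 8.70, 8.41, 9.44 and 9.89 in the tumours, against 11.17 to 11.98 in the normals (-2.42 ± 0.67), and Ccl5, of T and NK cells, 7.68, 7.67, 7.43 and 8.35 in the tumours, against 9.45 to 10.72 in the normals (-2.50 ± 0.58). Cxcl1 (9.45 to 9.81 in the tumours, against 9.27 to 9.46 in the normals), Cxcl2 (5.64 to 6.49 in the tumours, against 5.03 to 5.65 in the normals) and Cxcl5 (5.05 to 5.97 in the tumours, against 5.19 to 6.37 in the normals) overlapped and were not called, though 1 of the 3 Cxcl1 probe sets was called higher.

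Among 27 interleukin and receptor genes 8 rose and 3 fell, beside 23.3% and 18.1% over all genes. Csf2, for GM-CSF, the epithelial cytokine that alveolar macrophages depend on, had 8.71, 8.98, 8.70 and 8.49 in the tumours, against 7.44, 7.22, 7.21, 7.73 and 7.58 in the normals, with no overlap (1.28 ± 0.17). Csf1, the other macrophage growth factor, had 8.04, 7.98, 8.12 and 7.95 in the tumours, against 9.24, 9.50, 9.82, 9.61 and 9.62 in the normals and fell (-1.54 ± 0.28), while Il34, which shares its receptor, rose by 0.87 ± 0.15. Il1rn, the interleukin 1 receptor antagonist, rose by 1.31 ± 0.31, Il18 by 1.43 ± 0.26, and Tslp, an epithelial and stromal cytokine, fell (-1.80 ± 0.21). Il6 had 6.70, 6.19, 4.59 and 4.78 in the tumours, against 4.33, 4.40, 4.40, 4.45 and 4.65 in the normals; tumours 1 and 2 were above all normals and tumours 3 and 4 near them, with no call (adjusted p = 0.183). Of 22 genes of the TNF superfamily 7 rose and 6 fell, beside 23.3% and 18.1% over all genes. Tnfsf9, the ligand of the T cell receptor 4-1BB, had 11.13, 11.15, 11.03 and 10.93 in the tumours, against 6.22, 6.40, 6.38, 6.73 and 7.15 in the normals; the tumours lay within 0.22 of each other (4.48 ± 0.38). The gene of that receptor, Tnfrsf9, had 7.48, 8.01, 7.69 and 8.51 in the tumours, against 7.34 to 7.47 in the normals and missed the call (0.51, adjusted p = 0.103), though 1 of its 3 probe sets was called higher. Tnfrsf12a, the receptor Fn14, rose by 1.49 ± 0.26, and Tnfsf10, for TRAIL, had 8.90, 8.04, 8.40 and 8.06 in the tumours, against 11.14 to 11.56 in the normals and fell (-2.99 ± 0.47) beside Fas (-1.18 ± 0.23). In the complement list 3 of 17 rose and 4 fell, beside 23.3% and 18.1% over all genes (1 rose without tumour 1 or normal 1, 2 or 5). Clu (1.18 ± 0.36) was among the rises and Serping1 (-2.36 ± 0.41), the C1 inhibitor, among the falls.

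Prostaglandin and leukotriene genes gave 6 of 24 higher and 7 lower, beside 23.3% and 18.1% over all genes. Hpgd, which breaks down prostaglandins, had 10.14, 7.63, 8.55 and 7.5 in the tumours, against 13.31, 13.08, 12.87, 12.99 and 12.77 in the normals; tumour 1 was nearest to the normals and apart from them (-4.55 ± 0.83). Ptgis, for prostacyclin synthase of vessels, fell (-2.78 ± 0.40). Ltc4s (1.34 ± 0.25) and Alox5 (0.87 ± 0.18), of leukotriene synthesis in myeloid cells, rose, as did Ptgr1 (1.76 ± 0.28), which inactivates prostaglandins and leukotriene B4. Ptgs2, for cyclooxygenase 2, had 9.04, 7.87, 7.14 and 6.37 in the tumours, against 8.11, 8.33, 8.31, 8.11 and 8.31 in the normals; tumour 1 lay above the normals and the other 3 below them, with no call (adjusted p = 0.327).

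Of 17 genes of glycolysis and glucose uptake, 11 rose and 2 fell. The count of falls was 1 without tumour 1, 2 or 3 or normal 1, 4 or 5, and with each array centred. The list mean was 9.97, 10.61, 10.52 and 11.11 in tumours 1 to 4, against 9.78 to 9.92 in the normals. Hk2, the inducible hexokinase, had 9.67, 10.83, 10.68 and 11.29 in the tumours, against 8.60, 8.77, 8.55, 8.62 and 8.54 in the normals (2.00 ± 0.27). Slc2a1, the glucose transporter GLUT1, had 8.62, 9.90, 9.57 and 10.26 in the tumours, against 8.57, 8.57, 8.47, 8.58 and 8.51 in the normals; tumour 1 was only just above the normals and tumour 4 highest (1.05 ± 0.28). Tpi1 (11.50, 12.11, 12.12 and 13.10 in the tumours, against 10.67 to 10.92 in the normals) and Pfkl (10.52, 10.82, 10.86 and 11.90 in the tumours, against 9.62 to 9.89 in the normals), glycolytic enzymes, had tumour 4 highest as well. Pfkfb3, an activator of glycolysis, went the other way, with 7.55, 8.66, 8.11 and 8.32 in the tumours, against 9.39 to 9.55 in the normals (-1.29 ± 0.33). Hypoxia response genes rose in 10 of 17 cases, with list means of 9.40, 9.78, 9.58 and 10.39 in tumours 1 to 4, against 9.04 to 9.26 in the normals. Ankrd37, a HIF target, had 8.16, 9.24, 9.49 and 11.01 in the tumours, against 7.0, 7.35, 7.05, 6.92 and 7.08 in the normals (2.40 ± 0.41), and Egln3, the oxygen sensor PHD3, 6.43, 9.73, 8.14 and 10.47 in the tumours, against 6.57, 6.42, 6.29, 6.59 and 6.24 in the normals. Tumour 1 lay inside the normal range of Egln3 and tumour 4 was highest, and its call (2.27 ± 0.71) was lost without tumour 2 or 4. Bnip3, of mitophagy, had 11.58, 12.14, 11.62 and 13.40 in the tumours, against 10.97 to 11.22 in the normals (1.11 ± 0.31), and Vegfa fell (11.25, 10.82, 11.15 and 11.38 in the tumours, against 11.99 to 12.34 in the normals; -1.07 ± 0.14).

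Respiratory chain genes were called higher in 13 of 22 cases and lower in 0, with a median of 0.25. Atp5pb, of ATP synthase, had 13.17, 13.17, 13.16 and 13.14 in the tumours, against 12.53, 12.45, 12.40, 12.50 and 12.53 in the normals (0.68 ± 0.06), and Cyc1, of complex III, rose by 0.74 ± 0.12, while Sdha (11.10 to 11.39 in the tumours, against 11.12 to 11.28 in the normals) overlapped. Ribosome biogenesis genes rose in 11 of 20 and fell in 0; without tumour 2 or 3 the count was 7. Polr1c, a subunit of RNA polymerases I and III, had 11.43, 11.05, 10.80 and 11.07 in the tumours, against 9.33 to 9.74 in the normals (1.59 ± 0.17), and Npm1, a nucleolar chaperone, 12.27, 12.43, 12.40 and 12.42 in the tumours, against 11.77 to 11.93 in the normals (0.50 ± 0.14).

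Fasn, for fatty acid synthase, had 12.84, 13.14, 13.04 and 12.77 in the tumours, against 11.51, 11.34, 11.78, 11.87 and 11.79 in the normals (1.29 ± 0.17), and Acaca (1.17 ± 0.12) and Acly (0.59 ± 0.10), which supply it, rose. In the cholesterol branch Sqle had 8.42, 9.91, 8.57 and 8.57 in the tumours, against 9.64, 9.59, 9.83, 10.01 and 9.94 in the normals, with tumour 2 among the normals, and fell (-0.93 ± 0.22). Idi1 fell (-0.65 ± 0.22; not called without tumour 3 or 4 or normal 4), and the desaturase gene Fads1 fell (-0.78 ± 0.19). Over the 24 genes 5 rose and 5 fell, beside 23.3% and 18.1% over all genes, and the count of falls was 8 without tumour 2 and 3 without tumour 4. Serine and folate genes rose in 9 of 20 cases and fell in 3. Psat1, of serine synthesis, had 9.52, 9.83, 9.92 and 9.81 in the tumours, against 7.56, 7.66, 7.31, 7.81 and 7.75 in the normals, apart in every array (2.15 ± 0.20). Cth, of cysteine synthesis, rose by 1.68 ± 0.26, while Ddit3, for CHOP, fell (-0.91 ± 0.16) and Atf4 overlapped (11.40 to 11.66 in the tumours, against 11.42 to 11.72 in the normals).

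Amino acid transporter genes were called higher in 4 and lower in 5 of 18, beside 23.3% and 18.1% over all genes. Slc7a5, the large neutral amino acid carrier LAT1, had 8.86, 9.40, 9.26 and 9.54 in the tumours, against 8.05 to 8.29 in the normals (1.13 ± 0.14), and its partner chain gene Slc3a2 fell (-0.55 ± 0.17), a call lost without tumour 3. Slc38a5, a glutamine and serine carrier, had 6.10, 5.71, 5.41 and 5.66 in the tumours, against 9.94, 9.56, 8.96, 9.67 and 9.66 in the normals (-3.84 ± 0.31), and Slc7a10 7.33, 7.17, 7.43 and 7.4 in the tumours, against 10.28 to 10.82 in the normals (-3.24 ± 0.26). Of 22 cytochrome P450 and related genes 14 fell and 2 rose, and the count of rises was 0 without tumour 4 or normal 3 or with only the 9 arrays fitted, and 1 without tumour 2 or 3 or normal 1, 4 or 5 or after a further quantile normalization. Fmo1, a flavin monooxygenase, had 10.57, 8.69, 8.51 and 8.16 in the tumours, against 13.11, 13.13, 13.01, 13.01 and 13.08 in the normals (-4.09 ± 0.63). Cyp4b1, an airway and lung P450, had 10.71, 9.77, 8.63 and 9.06 in the tumours, against 12.95 to 13.46 in the normals (-3.67 ± 0.76). In both, tumour 1 was nearest to the normals. Glutathione and NRF2 target genes gave 7 of 23 higher and 8 lower, beside 23.3% and 18.1% over all genes. Hmox1, for heme oxygenase, had 10.54, 11.25, 11.03 and 10.95 in the tumours, against 8.95 to 9.22 in the normals (1.84 ± 0.22). Gstm1 had 10.43, 11.30, 10.85 and 11.71 in the tumours, against 12.39 to 12.60 in the normals (-1.41 ± 0.30), and Nqo1 (6.31 to 7.34 in the tumours, against 7.21 to 7.96 in the normals) overlapped without a call. Mucosal genes gave 4 of 19 higher and 5 lower, beside 23.3% and 18.1% over all genes. Normal 4 had the highest mean of this list among the 9 arrays. With 1 array left out, 4 to 5 genes were higher and 4 to 5 lower. Slpi (1.32 ± 0.30) and Muc20 (1.52 ± 0.21) were among the rises, and Pigr, the receptor that carries antibodies into mucus (-1.97 ± 0.57), was among the falls.

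The 4 tumours were not alike. Between pairs of tumours, 304 genes (tumours 3 and 4) to 782 genes (tumours 1 and 4) differed by at least 2-fold. Among called genes the largest ranges over the tumours included Dlk1, Ogn, Egln3 and Pcolce2 described above. Ly6k, of a family of membrane-anchored proteins, had 7.71, 7.17, 10.91 and 11.96 in the tumours, against 6.66, 7.28, 8.13, 7.11 and 6.90 in the normals; tumours 1 and 2 lay within the normal range and tumours 3 and 4 above it (2.22 ± 0.78), and the call was lost without tumour 3 or 4 or normal 1. Spink5, a protease inhibitor of skin and mucosa, had 5.42, 4.50, 8.31 and 8.91 in the tumours, against 5.28, 4.86, 4.29, 4.23 and 4.07 in the normals, with tumours 1 and 2 near the normals and tumours 3 and 4 far above them (2.24 ± 0.71, not called without tumour 3 or 4). Sec1, of a fucosyltransferase family, had 8.87, 6.41, 10.28 and 9.49 in the tumours, against 6.74, 6.85, 6.89, 6.97 and 6.88 in the normals, where tumour 2 was below the normals and the others above them (1.90 ± 0.56, not called without tumour 3). Bpifb1, a secreted airway protein, had 9.52, 8.12, 8.99 and 5.61 in the tumours, against 9.82, 11.40, 9.49, 11.47 and 9.11 in the normals, with tumour 4 lowest; its call (-2.20 ± 0.85) was lost without tumour 2 or 4 or normal 1, 2 or 4. Slc2a3, the glucose transporter GLUT3, had 7.53, 7.61, 10.93 and 10.66 in the tumours, against 10.06, 9.32, 8.91, 8.83 and 9.06 in the normals and was not called; tumours 1 and 2 lay below all normals and tumours 3 and 4 above them.

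Clock genes, whose RNA cycles over the day, were called higher in 4 of 17 cases and lower in 8. Arntl, for BMAL1 of the positive arm, had 10.01, 9.59, 8.11 and 8.80 in the tumours, against 7.67, 7.13, 7.95, 7.83 and 7.84 in the normals, highest in tumours 1 and 2 (1.44 ± 0.36). Npas2, a partner of BMAL1, had 9.54, 9.18, 7.16 and 7.32 in the tumours, against 5.97, 6.08, 6.52, 6.49 and 6.17 in the normals, in the same order (2.05 ± 0.47). Dbp, an output gene that BMAL1 drives, had 7.09, 8.07, 11.48 and 10.34 in the tumours, against 11.79, 11.69, 11.32, 11.30 and 11.83 in the normals; tumours 1 and 2 were far below all normals, tumour 4 was below them by less and tumour 3 lay within them (-2.34 ± 0.67). This call ended with all 10 normals as 1 group; the FVB normals had a mean of 9.81. Nr1d1, a repressor of Arntl, was low in every tumour (7.58, 8.39, 8.48 and 8.39 in the tumours, against 10.16 to 10.92 in the normals; -2.31 ± 0.31). The time of day of collection is not labelled, and its part was not tested. Tumours 1 and 2 were also those with high Eif2s3y, so that Ly6k, Spink5, Slc2a3, Il6, Arntl, Npas2 and Dbp separated tumours 1 and 2 from 3 and 4 as Xist did. The same split was in Dlk1, Meg3, Rian, Mirg, Dusp4, Cldn2, Col18a1 and Lamb3 described above, among others. The part of sex in all of these genes was not tested. The stress proteins that respond to heat and handling, Hspa1a (10.89, 7.87, 7.60 and 7.66 in the tumours, against 9.92, 10.09, 8.24, 11.22 and 7.25 in the normals) and Hspa1b (12.47, 9.83, 9.78 and 9.92 in the tumours, against 11.37, 11.87, 10.22, 12.28 and 9.53 in the normals), were high in tumour 1 and varied over the normals by 3.97 and 2.75; neither was called. Over 22 heat shock and chaperone genes 2 rose and 1 fell, beside 23.3% and 18.1% over all genes. The count of falls was 4 without tumour 1 and 3 without normal 5, and the count of rises was 1 without tumour 3 and 4 with each array centred.

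**Figure D4:**
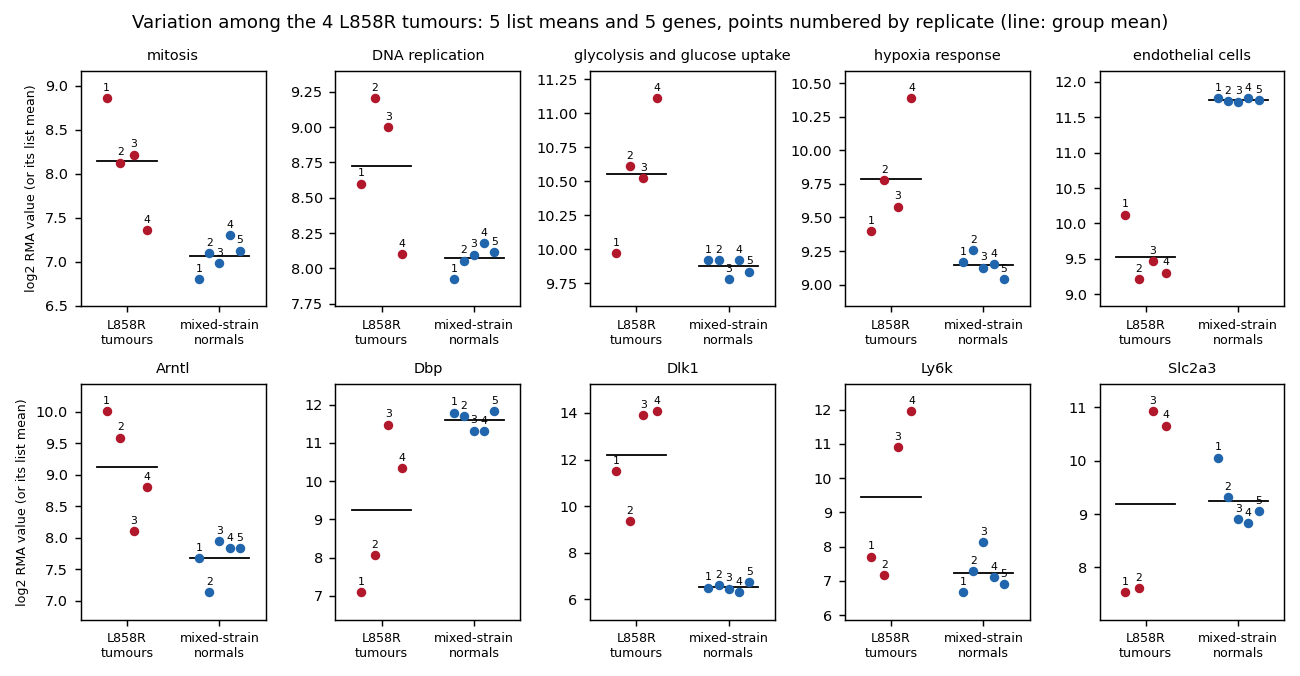
Log2 level of 5 list means (upper row) and 5 genes (lower row) in each array, numbered by replicate, L858R tumours (red) left of mixed-strain normals (blue), with a line at each group mean. Tumour 1 is highest in mitosis and endothelial genes and lowest in glycolysis and hypoxia, where tumour 4 is highest. Tumours 1 and 2 stand apart from 3 and 4 in Arntl, Dbp, Dlk1, Ly6k and Slc2a3. Each panel has its own axis.

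The last comparison asked which changes of L858R tumours differed from those of tumours with T790M. Each tumour group was first set against its own normals, and the difference between the 2 effects was tested in the same limma fit. Against L858R+T790M, 13 genes were called (0.0715%), 7 higher and 6 lower, with 1735 at an unadjusted p under 0.05. Against T790M, 76 genes were called (0.418%), 37 higher and 39 lower, with 2669 at an unadjusted p under 0.05, and 10 genes were in both sets. The other tumours and their normals carry the strain label FVB, so a strain-dependent change and a genotype-dependent change cannot be told apart. In the list of EGFR ligands the called member was Nrg4, whose effect was 0.60 in L858R tumours, against -0.05 in L858R+T790M and -0.05 in T790M tumours (adjusted p = 0.0377 and adjusted p = 0.018). Against L858R+T790M this call ended without 17 of 19 arrays, and both Nrg4 calls ended with the median over its probe sets.

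Cd200r4, a CD200 receptor family gene of myeloid cells, had the largest positive difference from L858R+T790M. It had 8.96, 9.95, 8.84 and 9.38 in the tumours, against 7.26, 7.42, 4.57, 6.41 and 4.47 in the normals. Normals 3 and 5 were below the other mixed-strain normals and near the FVB normals, whose mean was 4.62. Its effect in L858R tumours exceeded that in L858R+T790M tumours by 3.18 ± 0.60 (adjusted p = 0.0377) and that in T790M tumours by 3.01 ± 0.60 (adjusted p = 0.0221). Slc15a2, a peptide transporter of type 2 cells, had 12.17, 12.24, 11.61 and 12.38 in the tumours, against 9.24, 8.97, 9.19, 9.68 and 8.78 in the normals; its effect was higher by 1.96 ± 0.35 and 1.90 ± 0.35 in that order, and its effect was 0.97 in L858R+T790M and 1.03 in T790M tumours. The mean of the mixed-strain normals was 9.17 and that of the FVB normals 10.42. Without normals subtracted, L858R tumours differed from L858R+T790M tumours by 0.71 (adjusted p = 0.136) and from T790M tumours by 0.64 (adjusted p = 0.131), by limma, so both calls ended, as they did with the median over the probe sets of Slc15a2. Eya1, a cofactor of embryonic lung branching, had 7.89, 7.94, 7.82 and 7.26 in the tumours, against 6.50 to 6.75 in the normals, and its effects in the other tumours were -0.74 and -0.47 (difference from L858R+T790M 1.84 ± 0.30). Lipf, a gastric lipase, rose in L858R tumours by 1.93 and exceeded L858R+T790M by 1.64 ± 0.24.

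Zfp874a, a zinc finger gene, differed from both other tumour groups. Its effect in L858R tumours was -1.34, and the differences from the other tumours were -1.40 ± 0.09 and -1.29 ± 0.09. The mixed-strain normals lay at 6.86 to 7.06, the L858R tumours at 5.52 to 5.83, and the means of L858R+T790M tumours, T790M tumours and FVB normals were 5.70, 5.59 and 5.65. Without normals subtracted, the L858R tumours differed from L858R+T790M tumours by -0.07 (adjusted p = 0.606) and from T790M tumours by 0.04 (adjusted p = 0.785), by limma, although they share the label FVB mixed with the normals that stood above. Gpc6, a glypican, fell in L858R tumours (6.65, 7.09, 6.46 and 6.91 in the tumours, against 7.55 to 8.23 in the normals) and had an effect of 1.04 in L858R+T790M tumours (difference -2.08 ± 0.26). The other genes called against L858R+T790M were Dhrs3 (1.08), a retinal reductase, and Scpep1 (0.83), a serine carboxypeptidase, which were higher, and Tmem119 (-1.12), Fam114a1 (-1.10), Peak1 (-0.96) and Sybu (-0.62), which were lower.

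Against T790M tumours the largest positive differences were in Krt79, of alveolar macrophages, at 3.19 ± 0.56, with an effect of 1.49 in L858R tumours, against -1.71 in T790M tumours, and in Wfdc21, a secreted protease inhibitor family gene, at 3.04 ± 0.67. Ms4a8a (2.58 ± 0.49) had 9.82, 9.84, 8.10 and 8.87 in the tumours, against 7.05, 7.46, 5.56, 7.21 and 5.48 in the normals, with normals 3 and 5 low again. Acot1 (2.34), an acyl-CoA thioesterase, Rab3c (difference 2.22) and Vstm2a (2.09) followed. Ddc had the largest negative difference, -3.92 ± 0.76, with an effect of -1.72 in L858R tumours, against 2.20 in T790M tumours. Asns, for asparagine synthetase, differed by -1.29 ± 0.24; it was not called in L858R tumours (-0.30) and had an effect of 1.0 in T790M tumours. Apoe (-1.46 ± 0.29) and Hpse (-1.22 ± 0.25), a heparanase, were also lower against T790M, as were the stromal genes Pcdh18 (-1.46), Sdc2 (-1.34) and Dact1 (-1.23).

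The median effect over alveolar macrophage genes was 1.02 in L858R tumours, against 0.09 in L858R+T790M and 0.01 in T790M tumours, and Krt79 against T790M was the member called. Against L858R+T790M, 0 members were called. Siglecf rose in L858R tumours by 2.33, with effects of 0.07 and 0.19 in the others, and neither difference was called (adjusted p = 0.118 and adjusted p = 0.0818). Marco went another way, with effects of 3.42 in L858R, 3.65 in L858R+T790M and 0.80 in T790M tumours, and neither of its differences was called. The mitosis list had medians of 1.09, 0.51 and 1.19 in the same order with 0 members called different. The count against T790M was 167 without L858R tumour 3, 145 without T790M tumour 2 and 50 without FVB normal 2. The count against L858R+T790M was 5 without FVB normal 4 or mixed-strain normal 3. It was 6 without FVB normal 2 or 5, L858R tumour 1, L858R+T790M tumour 1, or mixed-strain normal 1 or 5, and 7 without FVB normal 1 or mixed-strain normal 4. It was 20 without L858R tumour 3, 21 without L858R+T790M tumour 2 and 25 without L858R+T790M tumour 4. Of the 13 genes called against L858R+T790M, the calls of Eya1, Gpc6, Lipf, Peak1 and Zfp874a held whichever of the 19 arrays was left out. The other 8 calls each ended without 8 to 17 of the 19 arrays, with adjusted p up to 0.103 for Cd200r4. The calls of Eya1 and Gpc6 ended with the median over their probe sets, as did their calls in L858R tumours against normals. With that median the calls of Nrg4, Slc15a2, Fam114a1 and Scpep1 ended too. Without normals subtracted, the calls of Zfp874a, Slc15a2, Sybu (adjusted p = 0.0829) and Tmem119 (adjusted p = 0.0561) ended. Of the 26 genes named against T790M, 17 held whichever array was left out, though those of Eya1, Nrg4 and Slc15a2 ended with the median over their probe sets. Without normals subtracted, the calls of Zfp874a, Slc15a2, Cdkn1a (adjusted p = 0.0632), Ctsh (adjusted p = 0.133), Peak1 (adjusted p = 0.329) and Tmem119 (adjusted p = 0.183) ended. Pcdh18 ended without L858R tumour 4 (adjusted p = 0.0546), Cd200r4 without L858R tumour 2 or 4 (up to 0.0619), and Hpse without FVB normal 3 or 4, L858R tumour 2 or mixed-strain normal 1 (up to 0.0664). Dact1, Peak1, Acot1, Tmem119, Ltc4s and Wfdc21 each ended without 8 to 16 of the arrays, with adjusted p up to 0.0973.

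**Figure D5:**
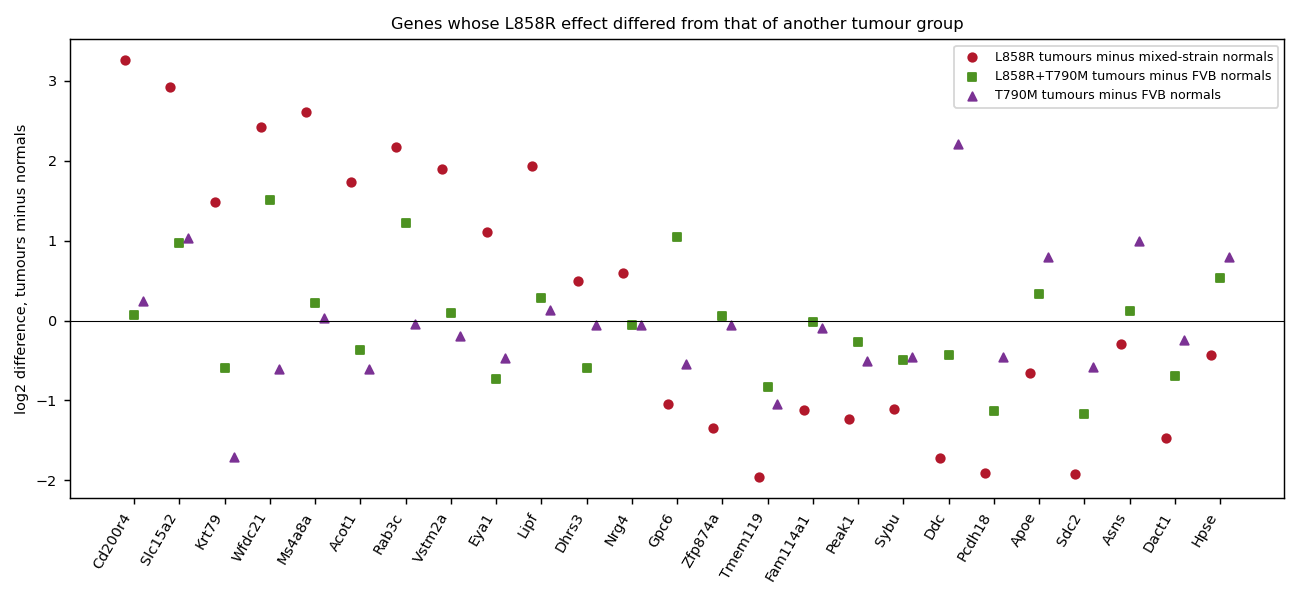
Effect of each tumour group (log2, tumours minus the normals of its own strain label) for genes whose L858R effect was called different from another group's, with L858R circles in red, L858R+T790M squares in green and T790M triangles in purple. Cd200r4, Slc15a2 and Krt79 are highest in L858R tumours, Ddc and Asns are highest in T790M tumours, and Zfp874a is near 0 in both FVB-labelled groups.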

How the data were processed

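RNA from 24 flash-frozen mouse lung and tumour samples, extracted with Trizol per the labels' protocols, was hybridised to 1 array each. The authors deposited log2 probe set values made with RMA (background correction, quantile normalization and summary of the probes of a set), per the submitters' processing notes, with no version given in the sources used here. Levels are therefore relative, and differences of very dim or very bright probe sets are compressed. No depth applies to arrays, and their number limits the precision.

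Of 45101 probe sets, 64 controls were left out, and the platform annotation paired 34945 with 1 gene symbol, 932 with several and 9160 with none here. Symbols were updated through RefSeq's GRCm38.p6 gene table for 34741 probe sets and kept as listed for 204. For each of the 18193 genes the brightest probe set was used, by its mean over the 24 arrays, and 9010 genes had several.

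Group means of all 24 arrays were fitted with limma 3.58.1 (lmFit, eBayes with trend) in R 4.3.3, two-sided, with Benjamini-Hochberg adjustment over all genes. In data simulated for the comparison of L858R tumours with mixed-strain normals (18193 genes), 90 of 100 genes changed by 1 on the log2 scale and 100 of 100 changed by 2 were called, and 10 of 200 calls fell on unchanged genes. The simulation drew independent normal values, gave a gene the same spread in every group and left all other genes unchanged. In the data the SD was larger in the tumours for 77.1% of genes and 7523 genes were called, so these rates need not hold there. Tables were handled with Python 3.11.15 (pandas 2.3.3, numpy 2.4.6, scipy 1.17.1).

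The members, the 64 gene lists (1110 of 1189 entries measured) and the tests were chosen with earlier results of these data known. Named genes were the 15 highest and 15 lowest called differences whose arrays did not overlap between groups, the 8 highest and 8 lowest for each difference between tumour effects, the 10 largest ranges among the L858R tumours over called genes, and list members, with clone and predicted names passed over. Promoter sequences came from RefSeq (GRCm38.p6). Alternatives were other scalings, the median over probe sets, a filter on dim genes, array weights, no variance trend, a replicate block, other normals, fewer arrays in the fit and each array left out in turn. Leaving out arrays for the Gapdh and Actb controls was added after seeing the data. Replicate numbers come from the array titles, which do not say that they mark shared animals or days.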

Additional observations from a re-analysis of the deposited data

Results flagged for a closer look

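A total of 704 groups of values were checked, each a named gene in the 4 L858R tumours or the 5 mixed-strain normals. The check was Dixon's ratio, the gap between 1 array and its nearest neighbour divided by the range of the group. It is relative to that range, so a small gap can be flagged, as for Lrig3 in L858R tumour 3 (6.56, against 6.6). By this ratio 38 groups held 1 array apart from the others (5.40%), and chance gives about 1 in 20. L858R tumour 1 was that array for 12 genes and mixed-strain normal 3 for 7, and the other arrays for 1 to 4 each. Values are log2 levels.

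In L858R tumour 1, Cidec was at 5.87, against 4.35 to 4.48 in the other L858R tumours. Errfi1 was at 12.55, against 11.9 to 11.97. Foxf1 was at 10.11, against 8.66 to 8.87. Hspa1a was at 10.89, against 7.6 to 7.87. Hspa1b was at 12.47, against 9.78 to 9.92. Klf2 was at 10.04, against 9.26 to 9.3. Krt5 was at 7.79, against 8.09 to 8.15. Nr1d1 was at 7.58, against 8.39 to 8.48. Pdgfra was at 10.82, against 9.13 to 9.39. Ptgis was at 9.89, against 8.94 to 9.02. Spred1 was at 11.09, against 11.41 to 11.44. Tmem100 was at 10.02, against 7.39 to 7.77. In L858R tumour 2, Egr1 was at 8.44, against 10.39 to 10.55 in the other L858R tumours. Jag1 was at 9.55, against 10.45 to 10.6. Sftpd was at 13.82, against 14.32 to 14.38. Sqle was at 9.91, against 8.42 to 8.57. In L858R tumour 3, Il11 was at 6.57, against 6.92 to 6.96 in the other L858R tumours. Lrig3 was at 6.56, against 6.6. In L858R tumour 4, Myh6 was at 5.05, against 8.35 to 8.61 in the other L858R tumours.

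In mixed-strain normal 1, Cd8a was at 7.37, against 7.11 to 7.15 in the other mixed-strain normals. Egr2 was at 7.63, against 7.3 to 7.39. Pdgfrb was at 11.02, against 10.57 to 10.7. In mixed-strain normal 2, Nrg2 was at 6.73, against 6.81 to 6.84 in the other mixed-strain normals. S100a8 was at 9.81, against 10.85 to 11.1. In mixed-strain normal 3, Ager was at 14.29, against 14.39 to 14.42 in the other mixed-strain normals. Alb was at 12.54, against 6.57 to 6.84. Cyc1 was at 11.26, against 11.45 to 11.51. Kng1 was at 7.58, against 4.08 to 4.63. Npm1 was at 11.77, against 11.9 to 11.93. Spry1 was at 11.14, against 11.33 to 11.38. Tslp was at 6.61, against 7.1 to 7.28. In mixed-strain normal 4, Cdh1 was at 12.25, against 12.34 to 12.36 in the other mixed-strain normals. Clca1 was at 13.37, against 4.08 to 4.3. Mamdc2 was at 11.38, against 11.94 to 12.14. Tgfbr1 was at 10.91, against 11.02 to 11.06. In mixed-strain normal 5, H2-Eb1 was at 9.0, against 11.91 to 12.47 in the other mixed-strain normals. Hbegf was at 9.8, against 9.54 to 9.59. Muc20 was at 8.52, against 8.02 to 8.15.

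The effect in L858R tumours (log2, tumours minus normals of the same strain label) differed from that in L858R+T790M tumours, by the limma test of the difference itself, in these named genes. It was higher in Cd200r4 (3.18), Dhrs3 (1.08), Eya1 (1.84), Lipf (1.64), Nrg4 (0.65), Scpep1 (0.83) and Slc15a2 (1.96). It was lower in Fam114a1 (-1.1), Gpc6 (-2.08), Peak1 (-0.96), Sybu (-0.62), Tmem119 (-1.12) and Zfp874a (-1.4). Strain label and genotype cannot be told apart in these differences.

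The same test against T790M tumours called these named genes. It was higher in Acot1 (2.34), Cd200r4 (3.01), Cdkn1a (1.22), Ctsh (0.8), Eya1 (1.57), Krt79 (3.19), Lipf (1.8), Ltc4s (1.53), Ms4a8a (2.58), Nrg4 (0.65), Rab3c (2.22), Slc15a2 (1.9), Vstm2a (2.09) and Wfdc21 (3.04). It was lower in Apoe (-1.46), Asns (-1.29), Dact1 (-1.23), Ddc (-3.92), Fam114a1 (-1.03), Hpse (-1.22), Pcdh18 (-1.46), Peak1 (-0.72), Sdc2 (-1.34), Sybu (-0.65), Tmem119 (-0.92) and Zfp874a (-1.29). Strain label and genotype cannot be told apart in these differences.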

How the results depend on the processing

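The count of 7523 genes in L858R tumours against mixed-strain normals moved by less than 1.5 times under every alternative run, from 6132 with the dimmest genes dropped to 8595 with each array centred on its median, and was 6735 to 7581 when 1 array was left out. Centring shifted the median over all genes by 0.07 and made 67.3% of calls higher, against 56.3% as deposited. Of 352 named genes, 286 stayed on their side of the threshold under every alternative, as did 99 of 128 list counts within 1.5 times. With the median over probe sets the sign turned for Egfr (-0.71) and Sftpc (-0.37), which have probe sets of different sign.

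Among named genes, calls against the normals ended with all 10 normals as 1 group for Ager, Apoe, Bpifb1, Cdkn2a, Cdkn2c, Col8a1, Dbp, Ifit3, Ighm and Lama3. They ended with the median over probe sets for Ccnd1, Col12a1, Col1a2, Eya1, Gpc6, Ighm and Mcm5, with only the 9 arrays fitted for Ly6k, Mcm5 and Spry2, with each array centred for Irf1 and Scgb1a1, after a further quantile normalization for Ccnd1 and Spry1, and with array weights for Bpifb1, Ighm and Lama3.

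The difference from L858R+T790M, 13 genes, became 20 after a further quantile normalization, 7 without the dimmest genes, 45 with array weights and 448 as a direct difference between tumour groups, and 5 to 25 with 1 array left out. The difference from T790M, 76 genes, became 316 with array weights and 1083 as a direct difference, and 50 to 167 with 1 array left out; Zfp874a turned to 0.038 in the direct difference. The direct difference adds whatever separates the strain labels. Other causes were not tested. Pooling all 10 normals makes these contrasts the direct difference, so it was not run separately. Of 39 named differences between tumour effects, 12 kept their call under every alternative.

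With the replicate number as a replicate block the counts were 7266, 8 and 65. Under this replicate block the calls of Bpifb1, Ccnd1, Ighm, Irf1, Mcm5 and Spry1 against the normals ended. Deviations of a tumour and the normal with its number correlated at 0.000762, -0.0793, -0.00744 and -0.284, and no tumour correlated best with its own number (highest other 0.272, 0.0745, 0.0572 and 0.173), so the numbers were not taken as pairs. The Gapdh 3-prime minus 5-prime difference was 0.082 to 0.139 and the Actb difference 0.049 to 0.102 with 1 array left out, with the exact permutation p of Actb at 0.0357 without L858R tumour 3. The number of arrays, 4 against 5, limits the precision.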
